A study of Mus musculus with 22 samples.

Results

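The keratin genes are the genes whose symbol in the 4 deposited RNA tables is Krt followed by a number and at most 1 letter, which leaves out the keratin-associated proteins. This rule found 51 genes of 21032 genes with a row, each with 1 transcript row. RNA was sequenced from primary mouse embryonic fibroblasts (MEFs), which are cultures grown from the body of C57BL/6 embryos at E13.5 and used at passage 3 to 4. WT cells carry both copies of Lsh (Lsh+/+) and KO cells lack it (Lsh-/-), with 2 libraries each, here called WT1, WT2, KO1 and KO2. Lsh is the chromatin remodeller encoded by Hells, which is needed for normal DNA methylation. The labels do not say which part of Hells was deleted, whether embryos were pooled, or what libraries of 1 replicate number have in common.

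Keratins are the intermediate filament proteins of epithelial cells. A filament is built from pairs of a type I and a type II keratin, and each kind of epithelium uses its own pairs. Krt8 with Krt18 and Krt7 with Krt19 are typical of simple epithelia and of mesothelium, Krt5 with Krt14 of the basal layer of stratified epithelia, Krt1 with Krt10 of the differentiating epidermis, and a further set of hair follicles. Fibroblasts build their filaments from vimentin instead.

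The libraries held 122.5 to 176.6 M (mega) mapped reads. Levels are RPKM, reads per kilobase of transcript per M mapped reads. Hells was at 0.865 RPKM in WT1 against 0.430 in KO1, and at 1.06 in WT2 against 0.550 in KO2, so both KO libraries had less than the WT library of their number. The libraries split by replicate number: the replicate 2 tables lack 5750 transcript rows of the replicate 1 tables, and 47.8% of the 11147 tested genes differed between the numbers. KO and WT are therefore compared within each number as well as pooled. Gapdh, an abundant housekeeping gene, was listed at no more than 0.298 RPKM in any library while Actb reached 2306, so a value at or near 0 is not evidence of silence. All 14 fibroblast markers listed passed the filter for testing, with a summed level of 1755 to 2780 RPKM. Col1a1 was at 291.1 to 516.6, but Fap, Lum and Pdgfra were low in replicate 1, at 0.379, 0.718 and 0.987 in WT1. The defining epithelial markers were near 0, with Cdh1 (E-cadherin) at 0.0150 to 0.0426 and Epcam at 0.0137 to 0.151 RPKM.

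Most keratins were close to 0. Of the 51 genes, 7 reached 0.5 RPKM in at least 1 library, 19 were above 0 without reaching it, and 25 were listed at 0 wherever they had a row. Only 11 were above 0 in all 4 libraries. All 25 that were listed at 0 had a row in the replicate 1 tables only, and Krt16 and Krt28, which were above 0, also lacked a row in replicate 2. No row of the replicate 2 tables was at 0 in both genotypes, but what a missing row means is not stated in the sources used here.

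The type I genes number 28 and the type II genes 23. All but 1 of the type I genes lie together on chromosome 11, from Krt222 to Krt42. The exception, Krt18, lies on chromosome 15 at the end of the type II cluster, next to its partner Krt8. On chromosome 11, 4 of 27 genes reached 0.5 RPKM (Krt10, Krt20, Krt19 and Krt14), and these were scattered among neighbours at or near 0. Krt19 stood at 13.4 RPKM in WT1, while Krt15 and Krt9, the genes beside it in the cluster, were at 0.0220 and 0 there. On chromosome 15, 3 of 24 genes reached it (Krt7, Krt8 and Krt18). These sit at the ends of the cluster: Krt7 is second after Krt80, and Krt8 and Krt18 are the last. Of the 20 genes between Krt7 and Krt8, the highest value was 0.0537 RPKM, for Krt5 in KO2.

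**Figure D1:**
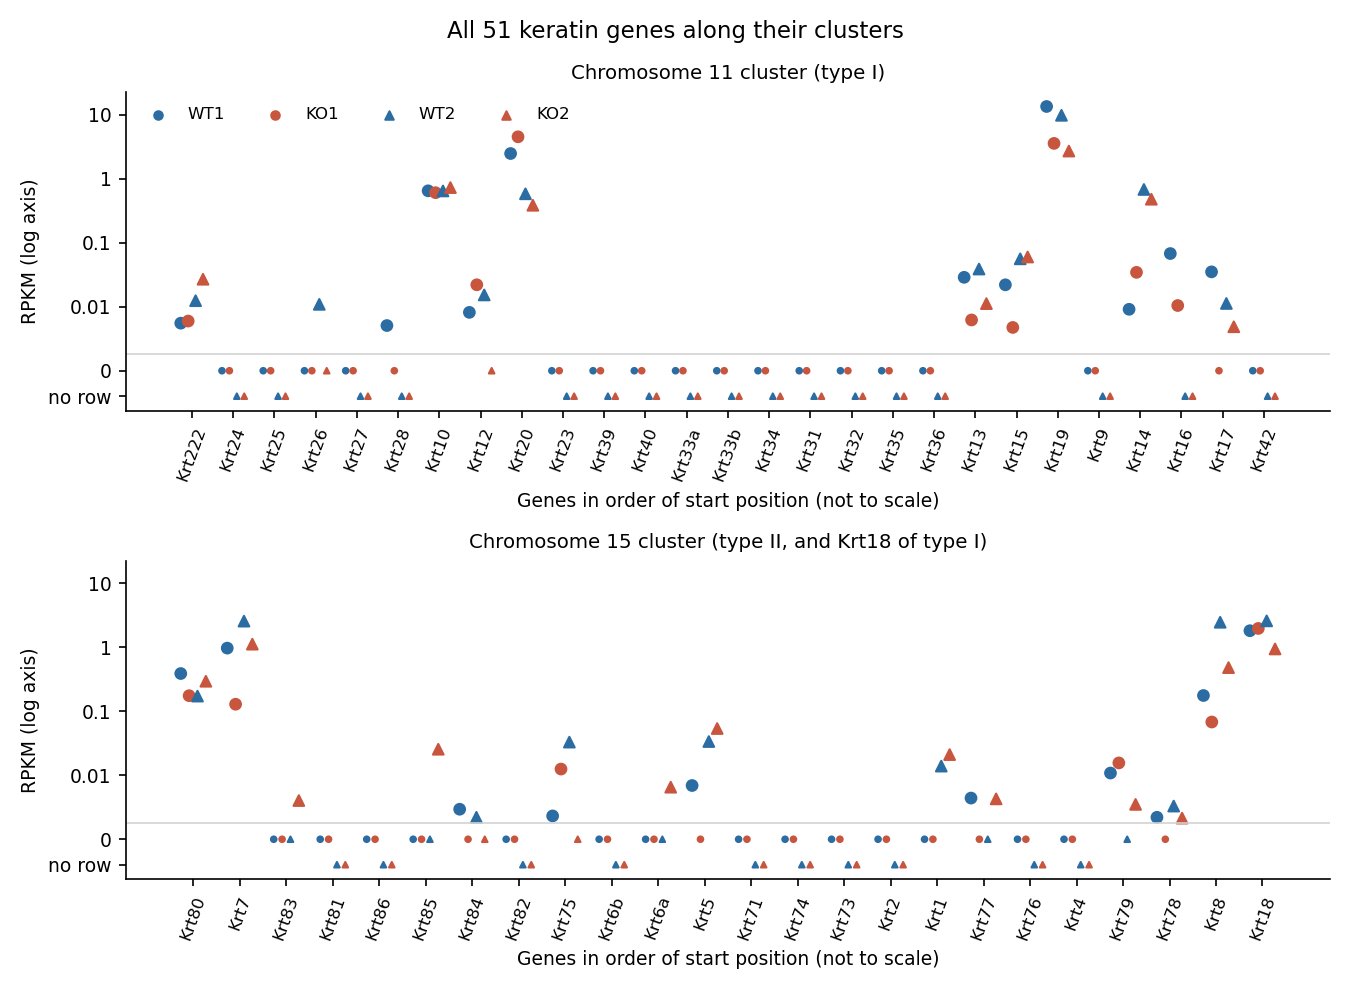
RPKM of all 51 keratin genes in WT1, KO1 (circles), WT2 and KO2 (triangles), in their order along chromosome 11 (above) and chromosome 15 (below), on a log axis with separate lines for values of 0 and for genes with no row in a table. Levels above 0.5 RPKM belong to Krt10, Krt20, Krt19 and Krt14 in the upper panel and to Krt7, Krt8 and Krt18 in the lower one.

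By class, the simple epithelial keratins held most of the signal. They are Krt18, Krt19, Krt20 and Krt23 of type I and Krt7 and Krt8 of type II, and they made up 93.8% of the summed keratin RPKM in WT1, 91.2% in WT2, 92.0% in KO1 and 76.6% in KO2. Krt23 alone among them was listed at 0. Of the 9 type I keratins of stratified epithelia, 2 reached 0.5 RPKM (Krt10 and Krt14), and of the 11 of type II, 0 did. The 14 type I and 10 type II keratins of hair follicle and nail stayed at or below 0.0329 RPKM, the value of Krt75 in WT2. Krt222, counted here with type I, belongs to none of these classes and was highest in KO2, at 0.0269 RPKM.

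Summed over all 51 genes, the keratin level was 20.1 RPKM in WT1, 19.7 in WT2, 11.1 in KO1 and 7.34 in KO2. Both KO sums lie below both WT sums. Among the tested keratins only Krt19 was ordered this way, as were 7.32% of all tested genes. Without the simple epithelial class the groups overlapped, with 1.25 RPKM in WT1, 1.73 in WT2, 0.891 in KO1 and 1.72 in KO2. For scale, Vim (vimentin) alone was at 1307 RPKM in WT1, 879.2 in WT2, 1198 in KO1 and 782.2 in KO2. Krt19 made up 66.8% and 49.7% of the keratin sum in WT1 and WT2 and 32.0% and 36.8% in KO1 and KO2. In KO1 the largest share was that of Krt20, with 40.6%.

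**Figure D2:**
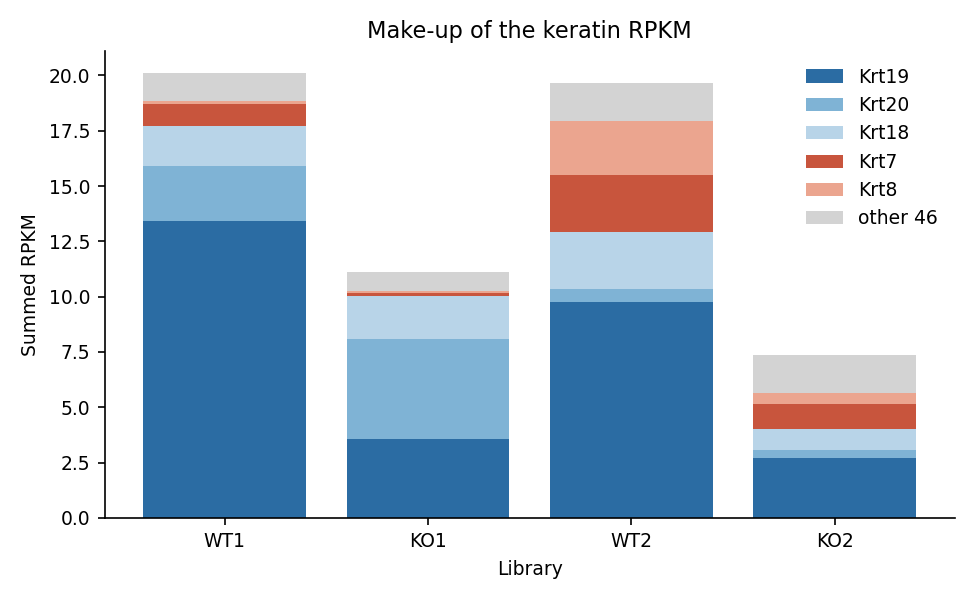
Summed RPKM of the 51 keratin genes in each library, stacked by gene, with the other 46 genes in grey. The columns reach 20.1 RPKM in WT1, 11.1 in KO1, 19.7 in WT2 and 7.34 in KO2, and the Krt19 part is the largest in all but KO1.

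Type I exceeded type II in each library, although the proteins pair one to one. The type I sum was 18.5 RPKM against 1.56 for type II in WT1, a ratio of 11.9, and 10.7 against 0.400 in KO1, a ratio of 26.9. In replicate 2 the sums were closer, with 14.4 against 5.27 RPKM in WT2 (ratio 2.73) and 5.33 against 2.01 in KO2 (ratio 2.65). The excess thus followed the replicate number more than the genotype. The partners Krt18 and Krt8 showed the same split: their ratio was 10.3 in WT1 and 29.0 in KO1, but 1.05 in WT2 and 1.96 in KO2. For Krt19 over Krt7 it was 13.9 in WT1 and 27.7 in KO1, but 3.83 in WT2 and 2.42 in KO2. RPKM is per length, so these genes can be compared, but Krt8 and Krt18 have processed pseudogene copies, and reads shared with copies leave their levels uncertain.

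The stretches of 250 bases that precede the start sites are shown for their spread in CG content, the substrate of the DNA methylation that Lsh supports. They are RefSeq promoters of build GRCm38.p6, another build than the mm9 of the expression tables. Capitals mark CG dinucleotides and the TATA box letters TATAAA (on either strand). The genes shown are 4 of the simple epithelial class, and Krt31, a hair keratin listed at 0, was added after its values were seen and lies at the lowest CG count found. Krt19 has no entry.
Krt7 (chr15:101412153-101412402, + strand): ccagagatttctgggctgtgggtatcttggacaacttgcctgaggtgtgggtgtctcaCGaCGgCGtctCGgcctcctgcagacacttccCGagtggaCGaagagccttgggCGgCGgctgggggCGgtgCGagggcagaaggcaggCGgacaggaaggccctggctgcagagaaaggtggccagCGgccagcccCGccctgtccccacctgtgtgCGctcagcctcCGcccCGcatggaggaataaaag
Krt18 (chr15:102027966-102028215, + strand): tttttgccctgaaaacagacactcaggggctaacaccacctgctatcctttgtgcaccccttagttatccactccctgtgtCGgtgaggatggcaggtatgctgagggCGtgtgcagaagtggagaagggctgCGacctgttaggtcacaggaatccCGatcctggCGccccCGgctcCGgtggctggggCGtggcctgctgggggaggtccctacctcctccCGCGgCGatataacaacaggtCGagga
Krt8 (chr15:102004343-102004592, - strand): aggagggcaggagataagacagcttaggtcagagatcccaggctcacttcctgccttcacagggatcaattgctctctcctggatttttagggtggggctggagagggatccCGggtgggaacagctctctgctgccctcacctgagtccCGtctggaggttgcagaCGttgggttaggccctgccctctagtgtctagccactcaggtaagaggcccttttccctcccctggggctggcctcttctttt
Krt20 (chr11:99438154-99438403, - strand): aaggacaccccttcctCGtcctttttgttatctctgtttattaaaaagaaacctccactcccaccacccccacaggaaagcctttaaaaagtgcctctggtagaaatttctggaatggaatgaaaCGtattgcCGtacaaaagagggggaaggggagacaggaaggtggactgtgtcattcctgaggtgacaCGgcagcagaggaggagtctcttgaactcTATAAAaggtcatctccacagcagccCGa
Krt31 (chr11:100050552-100050801, - strand): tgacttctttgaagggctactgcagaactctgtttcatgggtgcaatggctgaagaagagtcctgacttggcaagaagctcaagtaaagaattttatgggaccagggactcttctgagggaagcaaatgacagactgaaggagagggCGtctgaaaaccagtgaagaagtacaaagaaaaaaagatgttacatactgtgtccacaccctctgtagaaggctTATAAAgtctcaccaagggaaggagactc

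Krt7 has 16 CG dinucleotides in this window and Krt18 has 12, whereas Krt20 has 5, Krt8 has 3 and Krt31 has 1. Promoter entries were found for 34 of the 51 keratins, with a median of 4 CG, against a median of 5 (quartiles 2 and 16) over 27025 genes. The 28 entries of keratins that stayed below 0.5 RPKM had 1 to 8 CG, so Krt7 and Krt18 lie above all of them. The other members that reached 0.5 RPKM do not: besides Krt20 and Krt8, Krt10 has 2 and Krt14 has 5. Hair keratins span 1 to 8, with Krt39 at 8 and Krt28 at 6, and so overlap Krt20 and Krt8. Krt23, the simple epithelial keratin listed at 0, has 5. TATAAA occurs in 16 of the 34 keratin windows (47.1%) and in 12.9% of all windows, and the GC box GGGCGG (either strand) in 2 of 34 (5.88%), Krt7 and Krt75, and in 32.7% of all. These are matches of letters, and no methylation was measured here.

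The question put to KO and WT cells is how keratin transcripts differ when Lsh is absent. Krt19 and Krt7 were lower in KO, in both replicate numbers, and no other tested keratin was. Of all tested genes, 31.4% were lower in this way. In these cultures fewer cells of a type and less RNA per cell cannot be told apart. When limma was fitted on genotype alone, 0 of the 5 tested keratins passed (adjusted p below 0.05), as did 0 of all 11147 tested genes (0% called). At an unadjusted p below 0.05, 41 genes passed, Krt19 among them. On simulated data this fit recovered 0 of 100 genes with a log2 change of 2 in either direction. Its 0 calls are therefore no evidence that a gene did not change. With replicate number added to the model, 2 of the 5 fell, Krt19 and Krt7, and 0 rose, where 0.296% of all tested genes fell and 0.377% rose. The 5 tested members are those that 2 or more libraries held at 0.5 RPKM or above: Krt19, Krt7, Krt18, Krt20 and Krt10. "Fell" below refers to the fit with the replicate number. Earlier results on these libraries had already shown the lower Krt19 and Krt7, so the calls are no independent evidence.

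Krt19 (chromosome 11, 100002126 to 100007233 in mm9, minus strand), the smallest keratin and a type I protein of simple epithelia, was the most abundant member in WT. It was at 13.4 RPKM in WT1 and 9.78 in WT2, and at 3.56 in KO1 and 2.70 in KO2. Both KO libraries lie below both WT libraries, which held for 7.32% of all tested genes. These levels correspond to 2438 and 2371 reads in WT and 599 and 505 in KO. The ratio of KO to WT was 0.265 in replicate 1 (95% counting interval 0.242 to 0.290) and 0.276 in replicate 2 (0.250 to 0.304), so the numbers gave nearly the same ratio. The log2 change was -1.73 on the log2(RPKM + 0.5) scale, with an SE of 0.30 (adjusted p 1.00, limma with genotype only) or 0.17 (adjusted p 0.00186, limma with the replicate number).

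Krt7 (chromosome 15, 101242834 to 101258237 in mm9, plus strand), the type II keratin that pairs with Krt19 in simple epithelia, was at 0.968 RPKM in WT1 and 2.56 in WT2. In KO1 and KO2 it was at 0.129 and 1.12. The groups overlap, since KO2 lies above WT1, but KO was lower within each number. The reads were 203 in WT1 against 25 in KO1, and 716 in WT2 against 241 in KO2. The KO level was 0.133 of WT in replicate 1 (interval 0.0840 to 0.202) and 0.437 in replicate 2 (0.376 to 0.506). The log2 change was -1.07, with an SE of 0.67 (limma adjusted p 1.00) or, with the replicate number, 0.17 (limma adjusted p 0.0227). With a pseudocount of 0.1 the Krt7 log2 change was larger, -1.68, with an SE of 0.31, and the call ended (limma adjusted p 0.0873). Both keratin calls ended with no filter on low values and when each gene was read from its transcript of highest mean level. Neither choice alters a keratin value, since each keratin has 1 transcript row, and the log2 changes stayed at -1.73 for Krt19 and -1.07 for Krt7.

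Krt8 (chromosome 15, 101827142 to 101834773, minus strand), the type II partner of Krt18, was lower in KO within both numbers but was not in the main test. Only WT2 reached 0.5 RPKM: it was at 2.45 there, at 0.176 in WT1, 0.0679 in KO1 and 0.480 in KO2. KO2 thus lies above WT1, as for Krt7. The KO level was 0.385 of WT in replicate 1, from 15 and 42 reads (interval 0.199 to 0.709), and 0.196 in replicate 2, from 118 and 782 reads (0.160 to 0.238). With no filter on low values limma gave a log2 change of -0.92 once replicate number was in the model (adjusted p 0.635).

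Krt18 (chromosome 15, 101858647 to 101862457, plus strand), the type I partner of Krt8, differed between the numbers. It was at 1.81 RPKM in WT1 and 1.97 in KO1, and at 2.58 in WT2 and 0.939 in KO2. The KO level was 1.09 of WT in replicate 1 (interval 0.930 to 1.27), where counting error alone covers the difference, and 0.364 in replicate 2 (0.307 to 0.430). Its log2 change of -0.50 missed the threshold in limma with the replicate number (adjusted p 0.728). In replicate 1 Krt18 therefore did not follow Krt19, Krt7 and Krt8.

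Krt20 (chromosome 11, 99289717 to 99299467, minus strand), a type I keratin best known from the intestinal lining and the umbrella cells of the urothelium, went opposite ways in the numbers. It was at 2.47 RPKM in WT1 and 4.51 in KO1, and at 0.581 in WT2 and 0.384 in KO2. The KO level was 1.82 of WT in replicate 1 (interval 1.65 to 2.02) and 0.662 in replicate 2 (0.515 to 0.845). The log2 change was 0.23 (SE 0.26, adjusted p 0.900 in limma, number included), the mean of differences of 0.75 in replicate 1 and -0.29 in replicate 2.

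**Figure D3:**
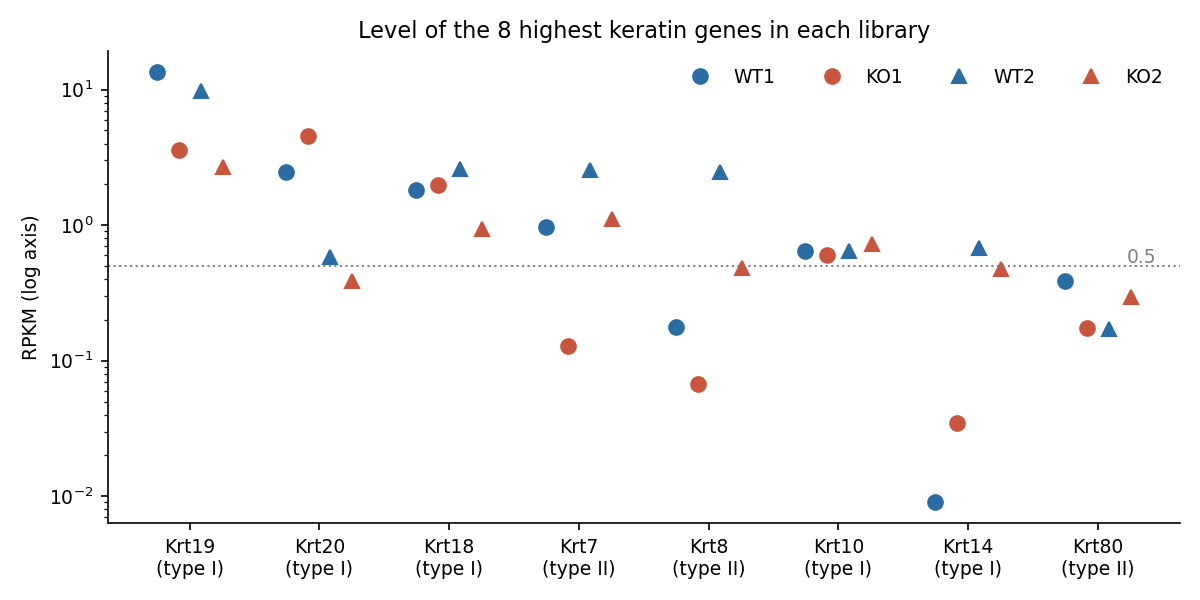
RPKM of the 8 highest keratin genes in WT1, KO1 (circles), WT2 and KO2 (triangles), WT in blue and KO in red, on a log axis, with a dotted line at the filter of 0.5 RPKM. Krt19 is the only one of the 8 whose KO points (3.56 and 2.70) both lie below both of its WT points (13.4 and 9.78).

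Of the keratins of stratified epithelia, Krt10, the type I keratin of differentiating epidermis, varied least among the tested members: 0.647 RPKM in WT1, 0.644 in WT2, 0.605 in KO1 and 0.726 in KO2. Its log2 change was 0.02 (SE 0.16, adjusted p 0.989 in limma, number included). Its partner Krt1 was listed at 0 in replicate 1 and was at 0.0139 in WT2 and 0.0210 in KO2, from 6 and 7 reads. Krt14, the type I keratin of basal layers, was a replicate 2 gene, at 0.679 in WT2 and 0.478 in KO2 (199 and 108 reads) against 0.00912 in WT1 and 0.0344 in KO1 (2 and 7 reads). Krt5, with which it pairs, had 13 reads in WT2, 16 in KO2, 2 in WT1 and 0 in KO1. Here too the type I partner was ahead, by a ratio of 20.2 in WT2 and 8.91 in KO2.

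Krt80, a type II keratin found in many epithelia, was the highest of the genes that never reached 0.5 RPKM, with 0.388 RPKM in WT1, 0.175 in KO1, 0.172 in WT2 and 0.294 in KO2. Its KO level was 0.451 of WT in replicate 1 (interval 0.300 to 0.665) and 1.71 in replicate 2 (1.18 to 2.48), so the numbers disagree beyond counting error. The other 18 genes above 0 stayed at or below 0.0677 RPKM. For 13 of them the reads could be resolved, and none had more than 19 in a library. By RPKM the highest were Krt16, a keratin of activated epidermis, with 14 reads in WT1 and 2 in KO1; Krt15, a basal keratin, with 5 and 17 reads in WT1 and WT2 and 1 and 14 in KO1 and KO2; Krt5; and Krt13, a keratin of internal stratified epithelia, with 5 and 9 against 1 and 2 reads. Krt75, a hair follicle keratin with the most reads of the 13, had 19 in WT2 and 0 in KO2 but 1 in WT1 and 5 in KO1. Sharing of reads between near-identical relatives such as Krt6a and Krt6b cannot be seen.

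**Figure D4:**
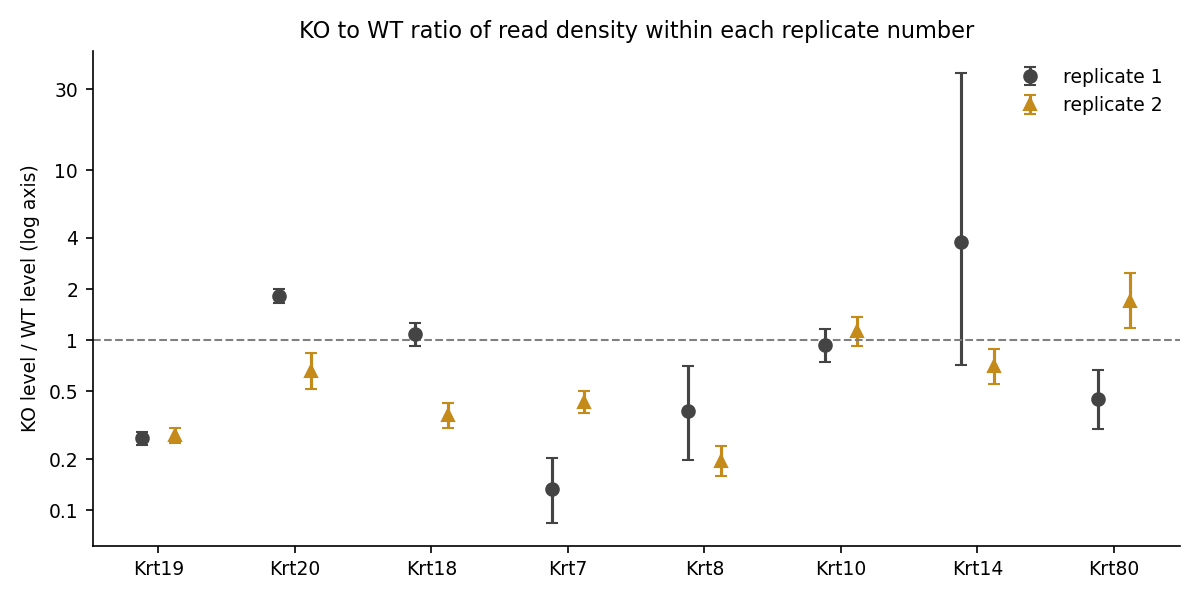
KO level divided by WT level for the 8 highest keratin genes within replicate 1 (circles) and replicate 2 (triangles), on a log axis, with 95% exact intervals that cover counting error only. Krt19 gives 0.265 and 0.276, Krt7 and Krt8 lie below 1 in both numbers, and Krt20 and Krt80 lie on opposite sides of 1.

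Between the replicate numbers, 2 of the 5 tested keratins differed in limma with genotype as a term, 1 in each direction, where 35.8% of all tested genes were higher in replicate 2 and 11.9% lower. Krt7 was higher in replicate 2 (log2 difference 1.21, SE 0.17, limma adjusted p 0.000287) and Krt20 lower (-1.98, SE 0.26, limma adjusted p 0.000549). For both, the fold between the numbers exceeded that between the genotypes, but for Krt7 not with median-ratio scaling (1.02 between numbers, -1.08 between genotypes). Krt8 and Krt14, outside the main test, were higher in replicate 2 in both genotypes, and with no filter limma called them as well (adjusted p 0.0372 and 0.00941). Krt19 was slightly lower in replicate 2 (-0.39, limma adjusted p 0.0775), and with median-ratio scaling this difference was -0.69 and was called (limma adjusted p 0.00310).

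Other intermediate filament genes, which serve non-epithelial cells and the nucleus, showed 0 calls among 14 tested of 19 listed, and in both numbers 7 had less and 2 had more in KO. Their median log2 change was -0.14, against -0.02 over all tested genes, where 31.4% were lower and 22.5% higher within both numbers. Des, the filament of muscle, was at 23.7 RPKM in WT1 against 2.38 in KO1, but at 31.5 in WT2 against 38.0 in KO2. Nes, a filament of progenitor cells, was at 85.5 in WT1 against 93.6 in KO1, and at 19.3 in WT2 against 22.2 in KO2. Synm, a linker of such filaments, ran from 0.370 to 0.991 RPKM.

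Desmosome and linker genes, which anchor keratin filaments to the membrane, gave 0 calls among 10 tested of 22 present, with a median change of -0.10. Dsp (desmoplakin) was at 0.594 RPKM in WT1 against 0.848 in KO1, and at 0.257 in WT2 against 0.280 in KO2. Jup (plakoglobin) was at 23.3 in WT1 against 16.9 in KO1, and at 15.2 in WT2 against 11.5 in KO2. Pkp1, a plakophilin of stratified epithelia, was at 1.63 in WT1 against 8.29 in KO1, and at 0.0316 in WT2 against 0.0213 in KO2, and Pkp2 ran from 2.90 to 6.99. Pkp1 was thus high where Krt20 was high, in replicate 1 and most in KO1.

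The epithelial markers that could be tested were lower in KO, as Krt19 and Krt7 were, but none passed. Of 29 listed, 23 stayed below 0.5 RPKM throughout. The list's summed level was 15.5 RPKM in WT1, 48.9 in WT2, 7.39 in KO1 and 32.8 in KO2. Cdh3 (P-cadherin) made up most of it in replicate 2, at 35.6 in WT2 against 24.6 in KO2, but not in replicate 1, at 4.43 in WT1 against 1.76 in KO1. There Sfn (stratifin, a 14-3-3 protein of epithelia) was highest in WT1, at 4.84 against 0.825 in KO1, and Cldn4 (a claudin of tight junctions) in KO1, at 1.98 against 2.11 in WT1. All 5 tested members (Cdh3, Spint2, Lsr, Sfn and Cldn4) were lower in KO within both numbers, as were 31.4% of all tested genes. Their median log2 change was -0.55, and 0 passed in either fit. Of the defining markers Cdh1 and Epcam, both below the filter, Cdh1 went opposite ways in the numbers and Epcam was higher in KO in both. Cdh1 was at 0.0171 RPKM in WT1 against 0.0426 in KO1, but at 0.0244 in WT2 against 0.0150 in KO2. Epcam was at 0.0551 in WT1 against 0.151 in KO1, and at 0.0137 in WT2 against 0.0463 in KO2. Cldn3 ran from 0.110 to 0.368 RPKM. The part of epithelial cells in the keratin result was not tested.

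Mesothelium, the lining of body cavities, makes Krt7, Krt8, Krt18 and Krt19 too. Of 15 markers present, 11 were tested and 0 passed. Within both numbers 2 were lower and 0 higher, where 31.4% of all tested genes were lower and 22.5% higher. The first is Upk3b, at 1.09 RPKM in WT1 against 0.385 in KO1, and at 11.7 in WT2 against 6.24 in KO2 (log2 change -0.85, limma adjusted p 0.0661 with the replicate number). The second is Lrrn4, at 0.240 in WT1 against 0.0258 in KO1, and at 3.08 in WT2 against 1.09 in KO2 (-0.83, limma adjusted p 0.104). Msln (mesothelin) was at 0.125 in WT1 against 0.0772 in KO1, and at 0.801 in WT2 against 0.931 in KO2, and Upk1b ran from 2.27 to 5.18. The summed level of the list was 27.2 RPKM in WT1, 55.4 in WT2, 37.9 in KO1 and 41.4 in KO2. Efemp1, a secreted matrix protein, made up 21.5, 23.6, 32.0 and 16.5 RPKM of these, and the list's median log2 change was 0.01. Upk3b, Lrrn4 and Msln, like Krt7 and Krt8, were higher in replicate 2, a direction called for 35.8% of all tested genes. On average Krt19 and Krt18 were not, with log2 differences of -0.39 and -0.18 (replicate 2 minus replicate 1). The part of mesothelial cells in the keratin result was not tested.

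Epidermal differentiation genes were mixed: of 6 tested members 0 passed, and in both numbers KO had less of 3 and more of 2. Of all tested genes, 31.4% were lower and 22.5% higher within both numbers. Ivl (involucrin), a protein of the cornified envelope, was at 3.73 RPKM in WT1 against 30.2 in KO1, and at 0.119 in WT2 against 0.239 in KO2. Sprr1a was at 2.18 in WT1 against 16.8 in KO1, and at 0.788 in WT2 against 0.697 in KO2. Sprr3 was at 0.947 in WT1 against 3.84 in KO1, and at 0.879 in WT2 against 1.13 in KO2. These 3 genes of the cornified envelope were highest in KO1, as Krt20 was. The 3 lower ones were highest in WT1: Lor (loricrin) was at 2.71 in WT1 against 1.78 in KO1, Sbsn at 1.24 against 0.864 and Cstb at 68.1 against 60.6. In replicate 2 Lor was at 0.439 in WT2 against 0.413 in KO2, Sbsn at 0.603 against 0.395 and Cstb at 46.9 against 44.5. Sprr1b reached 0.0697 RPKM.

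Fibroblast markers gave 0 calls among 14, with 3 lower and 9 higher in KO within both numbers. Of all tested genes, 31.4% were lower and 22.5% higher in this way. The list's median log2 change was 0.30, against -0.02 over all tested genes, and its median difference was 0.46 in replicate 1 and 0.09 in replicate 2. Col1a1 and Col1a2, the chains of collagen I, were at 318.3 and 308.5 RPKM in WT1, against 291.1 and 288.6 in KO1, and at 516.6 and 623.4 in WT2, against 464.5 and 617.4 in KO2. Col3a1 was at 50.6 in WT1 against 73.5 in KO1, and at 262.0 in WT2 against 288.7 in KO2. Pdgfra was at 0.987 in WT1, 23.2 in WT2, 2.46 in KO1 and 23.1 in KO2.

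**Figure D5:**
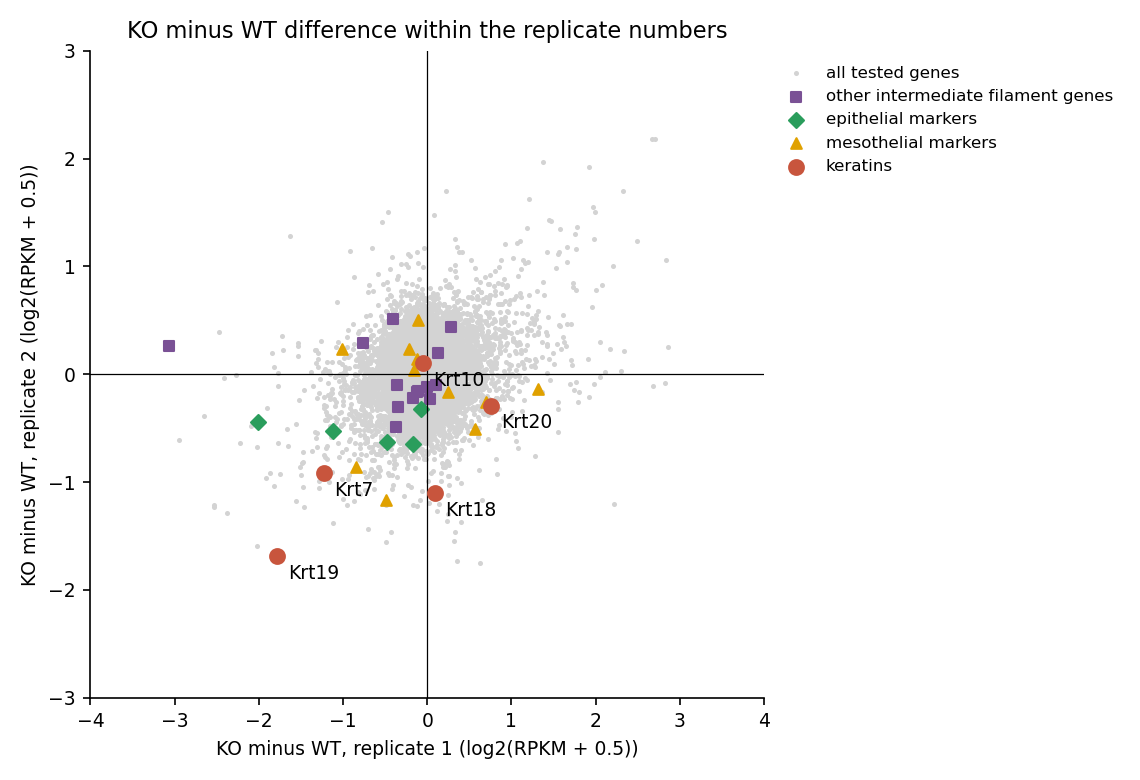
KO minus WT difference on the log2(RPKM + 0.5) scale within replicate 1 (horizontal) and replicate 2 (vertical) for all 11147 tested genes (grey), the 5 tested keratins (red) and 3 gene lists. Krt19 and Krt7 lie at the lower left (-1.78 and -1.68 for Krt19, -1.22 and -0.92 for Krt7), with the 5 epithelial markers on the same side of both axes.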

How the data were processed

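RNA of 4 libraries, 2 per genotype, was analysed. The other 18 of the 22 samples (input, RNA polymerase II and histone marks) are not analysed here. The deposited values are RPKM per RefSeq transcript, made by the authors. The readme names Cufflinks, and the submitters' processing notes name Partek and mm9. For the aligner and for reads with several matches: not given in the sources used here. Rows cover chromosomes 1 to 19. File starts are 1-based and stops exclusive, so ends are given as stop minus 1.

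Rows were summed per symbol. Genes with a value in all 4 libraries and at least 0.5 RPKM in at least 2 were tested on log2(RPKM + 0.5) with limma 3.58.1 in R 4.3.3 (eBayes, trend and robust), two-sided, with Benjamini-Hochberg adjustment over 11147 genes and a threshold of 0.05. Genotype was the only term; the replicate number was added as a second term because the tables differ by number. That fit leaves 1 residual degree of freedom per gene. Its p-values rest mostly on variance that limma shares across the tested genes (median prior degrees of freedom 9.70), less on the spread of the gene itself. In both fits the spread is that between these libraries.

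Mapped reads per library came from the 1-read steps of RPKM times length at single-exon olfactory receptor loci, of which at least 95.7% were whole within 0.02 reads. Reads of a keratin are the smallest whole numbers that fit its values at 1 transcript length from 1000 to 5000 bases, for genes above 0 in at least 2 libraries. Intervals are exact binomial, at 95%, and cover counting error only; they compare libraries, not genotypes. The fits were tested on simulated data that kept the differences between the replicate numbers but gave every gene the same spread. Of 100 genes with a log2 change of 1 in either direction, limma recovered 0 with genotype only and 98 with the replicate number. Of 100 with a change of 2 it recovered 0 and 100. The fit with the number also made 7 false calls. Real genes differ in spread: Des, with a log2 change of -1.40, had an SE of 1.34 in that fit and was not called. Recovery in the real data can therefore be lower.

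All keratins are accounted for, with values for those at 0.5 RPKM or more and the 5 highest others. Of other lists, called genes and the first 4 present are named, and further ones were chosen after their values were seen. For 1 of these genes the value is not reported here. The members and lists were chosen with earlier results of these data known. Alternatives were pseudocount, filter, transcript choice, median-ratio scaling, the number as a term and each library left out.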

Additional observations from a re-analysis of the deposited data

How the results depend on the processing

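A count of 0 from the fit with genotype only says nothing about stability: the calls were 0 keratins and 0 genes for each pseudocount, filter, transcript choice and scaling tried, and 0 to 0 with 1 library left out, and the log2 change kept its sign, from -1.95 to -1.51 for Krt19 and from -1.75 to -0.39 for Krt7 with 1 library left out. At an unadjusted p below 0.05, 41 genes passed. With the replicate block, 2 keratins and 75 genes were called (Krt19 -1.73, Krt7 -1.07). Nothing in the labels ties same-numbered libraries to 1 source; their deviations from the genotype means had a correlation of 0.875 across genes. Leaving out a library with the block gives no value, because no residual degree of freedom remains. With the block and a pseudocount of 0.1, 1 keratin and 40 genes were called (Krt19 -1.85, and Krt7, not called, -1.68); with a pseudocount of 1, 2 and 59 (Krt19 -1.60, Krt7 -0.78); with at least 1 RPKM, 2 and 70 (Krt19 -1.73, Krt7 -1.07); with median-ratio scaling, 2 and 140 (Krt19 -1.69, Krt7 -1.08). With the block, 0 keratins and 0 genes were called with no filter, and 0 and 3 with the highest transcript, where the Krt19 adjusted p in limma was 0.408 and 0.0597; the cause was not tested. Between the replicate numbers, 4 keratins were called with no filter (Krt8 and Krt14 added) and 3 with median-ratio scaling (Krt19 added, -0.69), against 2 with the 0.5 RPKM filter and the values as deposited. Of the 51 keratins, 44 never reached 0.5 RPKM, and apart from Krt80 those with resolved reads had at most 19 in a library.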
